A study of Mus musculus with 4 samples.

Results

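The genes described here take up, activate, burn or store fatty acids: 39 genes chosen by symbol, all of them found among the 17454 gene rows of the deposited expression table. They were measured by RNA sequencing in double negative T cells sorted from mouse liver, a T cell population with the CD3 receptor complex and without the CD4 and CD8 coreceptors. The cells came from adult C57BL/6 mice and had been sorted as 7-AAD-negative (viable), CD45-positive and CD3-positive cells lacking NK1.1, CD4 and CD8. The 4 libraries were 2 from mice fed a normal diet and 2 from mice fed a methionine-choline deficient diet, which is widely used to bring fat and inflammation into the mouse liver. How many mice a library holds, and whether replicate libraries are separate animals, is not stated in the labels. The p-values thus speak of the spread among these libraries, which may be technical. The levels were read as FPKM, fragments scaled to transcript length and to the mapped total, although no unit is named with the data. Setting levels of different genes side by side, as in shares and ratios, rests on that reading. Read depth is unknown from such values.

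A long-chain fatty acid enters a cell with the help of membrane proteins such as CD36, is carried by fatty acid binding proteins and is activated to an acyl-CoA by a synthetase. The acyl-CoA is either joined to glycerol and stored as triglyceride in a lipid droplet, or passed through the carnitine shuttle into the mitochondrion, where beta oxidation shortens it in repeated cycles of dehydrogenation, hydration, a second dehydrogenation and thiolysis. In T cells this oxidation is known chiefly from memory and regulatory cells, and mouse T cells that live in tissues are known to draw on outside lipid.

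On the deficient diet Dgat1, which makes triglyceride, rose 3.61-fold (adjusted p = 0.0444, n = 2 per diet, limma). Its call was lost without normal diet replicate 1, deficient diet replicate 1 or deficient diet replicate 2 (adjusted p = 0.117, 0.101 and 0.231). No other of the 35 members that could be tested passed the threshold. Acsl4, an acyl-CoA synthetase, had 2.37 times its normal diet level (adjusted p = 0.0547). Several mitochondrial enzymes stood between 1.40 and 1.98 times their normal diet levels, among them Echs1, Acadm, Acaa2, Acadvl and Acads, while the dehydrogenase Acadl stood at 0.623 times its level. None of these 6 enzymes passed. Cpt1a, the entry gate of the carnitine shuttle, and Hadha, a core enzyme of the cycle, differed little in mean level. The test was limma on log2(FPKM + 1), with Benjamini-Hochberg adjustment over the 10423 genes that reached 1 FPKM in at least 2 libraries.

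The call rate among the members was close to that of all genes. Of 35 members 1 was called higher and none lower, or 2.86%, beside 286 of 10423 genes, or 2.74%, with 1.22% called higher and 1.53% lower. With normal diet replicate 1, deficient diet replicate 1 or deficient diet replicate 2 left out limma called 0 genes, with 1670, 2029 and 1337 genes at an unadjusted p under 0.05, and without normal diet replicate 2 it called 352 genes and again 1 member. At an unadjusted p under 0.05 there were 8 members, 7 higher and 1 lower, a share of 22.9% beside 22.8% of all genes. The libraries of the diets did not overlap for 20 members, 57.1% beside 56.2% of all genes. In direction, 15 members lay higher without overlap, 42.9% beside 30.7% of all genes, and 5 lay lower, 14.3% beside 25.5%. The median log2 change was 0.20 over the 35 members and 0.04 over all genes tested. The members' median was 0.15 without normal diet replicate 1, 0.28 without normal diet replicate 2, 0.14 without deficient diet replicate 1 and 0.41 without deficient diet replicate 2. One of these 5 lower members, Acsl3, entered the test only through its normal diet libraries. Cpt1b, Ppara, Ppard and Ppargc1a stayed below 1 FPKM in every library and were not tested. The libraries held 9712 to 10435 genes at or above 1 FPKM.

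**Figure D1:**
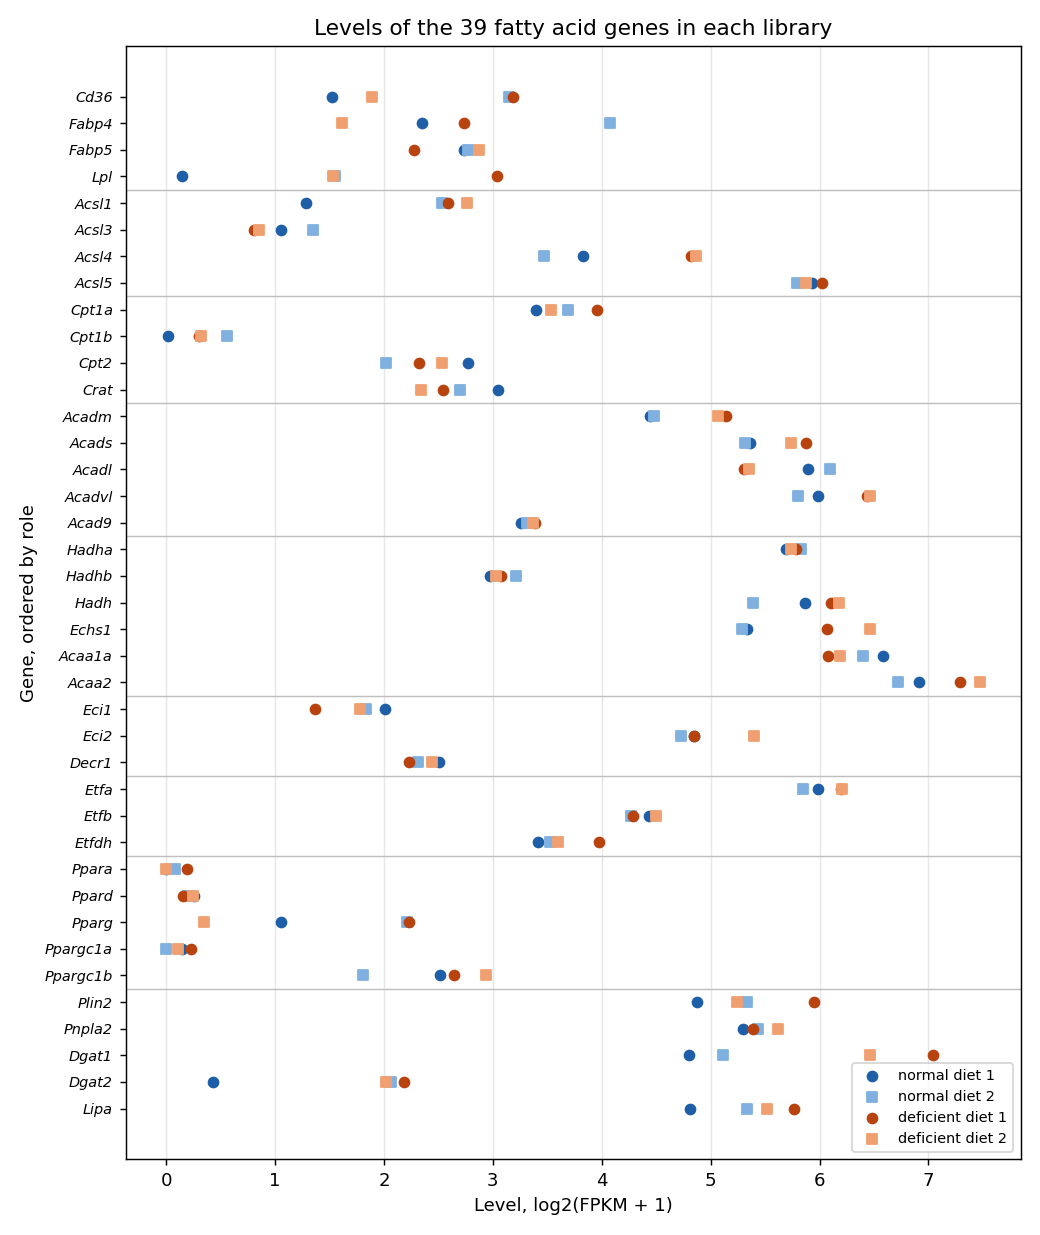
Level of each of the 39 genes in each library on the log2(FPKM + 1) scale, grouped by role from uptake at the top to storage at the bottom; circles and squares are replicates 1 and 2. Dgat1, Acsl4 and most dehydrogenases show the deficient diet libraries to the right of the normal diet libraries, Acadl the reverse, and Cd36, Fabp4, Lpl and Pparg spread widely within a diet.

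The sorted population was checked against markers. All 10 T cell markers, Cd3e and Lck among them, stood between 46.0 and 700.3 FPKM in every library. They were not level between diets. Without overlap 3 lay higher on the deficient diet and 7 lower, beside 30.7% and 25.5% of all genes. Their log2 changes ran from -0.75 to 0.69, and none was called. Transcripts of the markers gated out were lower on the deficient diet: the sum of Cd4, Cd8a, Cd8b1 and Klrb1c, the gene of NK1.1, was 69.7 and 45.5 FPKM against 20.2 and 20.8 FPKM. The 11 markers of the exocrine pancreas, none at 0 in any library, summed to 10730 and 3077 FPKM under the normal diet and to 1033 and 385.0 FPKM under the deficient diet, with 9 of the 11 lower without overlap. The 13 macrophage markers summed to 147.7 and 2110 against 1333 and 714.4 FPKM, with Clec4f at 0 in normal diet replicate 1 and no other marker of the list at 0. The 12 endothelial markers, none at 0 in any library, summed to 79.9 and 862.9 against 462.6 and 150.4 FPKM. Normal diet replicate 1 therefore held the least of these macrophage and endothelial transcripts and normal diet replicate 2 the most. In such sorted bulk samples fewer cells of a type and less RNA per cell cannot be told apart.

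Among uptake genes, the fold between the normal diet libraries was larger than that between the diet means for Cd36, Fabp4 and Lpl. Cd36, which encodes a membrane receptor that takes up long-chain fatty acids, stood at 1.88 and 7.85 FPKM under the normal diet and at 8.11 and 2.69 FPKM under the deficient diet. The groups overlapped, and normal diet replicate 2 and deficient diet replicate 1 were the high libraries. The log2 change was 0.20 with a 95% interval from -1.63 to 2.03 (limma adjusted p = 0.900), which leaves room for a large difference in either direction.

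Fabp4, a fatty acid binding protein that endothelium, macrophages and fat cells also make, stood at 4.10 and 15.8 FPKM against 5.66 and 2.05 FPKM. Normal diet replicate 2 was again high, and the groups overlapped. Lpl, lipoprotein lipase, which frees fatty acids from circulating triglyceride, stood at 0.107 and 1.93 against 7.18 and 1.88 FPKM. Its fold between the libraries of the normal diet, 17.9, was larger than the fold between the diet means, 4.46. The first fold rests on a value below the filter of 1 FPKM. In FPKM the diet means, 1.02 and 4.53, lay further apart than the normal diet libraries.

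Fabp5, a second binding protein of this family, was steadier. It stood at 5.66 and 5.84 FPKM under the normal diet and at 3.84 and 6.33 FPKM under the deficient diet, with a log2 change of -0.18 (limma adjusted p = 0.761). Fabp5 carried between 26.9% and 75.5% of the summed level of Fabp4 and Fabp5 in a library. The normal diet libraries lay 3.87-fold apart for Fabp4 and 1.03-fold apart for Fabp5. From deficient diet replicate 1 to replicate 2 Fabp4 fell while Fabp5 rose. Only 68.8% of the 36-base words in the Fabp5 transcript occur in no other gene of the GENCODE vM21 annotation, against 100% for Fabp4, so the level of Fabp5 depends on how shared reads were counted, which is not given in the sources used here.

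Cd36, Fabp4, Lpl and Pparg were higher in normal diet replicate 2 than in replicate 1, and higher in deficient diet replicate 1 than in replicate 2, as were the summed macrophage and endothelial markers. That order was not particular to these 4 genes. Other members held it, Acadm, Hadha, Hadhb and Cpt1a among them, there with folds between replicates of at most 1.37. Across the 10423 genes tested, same-numbered libraries deviated in opposite directions from their diet means (correlation -0.284). Lyz2, a lysozyme of macrophages and the most abundant macrophage marker, stood at 140.4 and 1934 against 1197 and 662.7 FPKM. Clec4g, of sinusoidal endothelium, stood at 23.3 and 262.7 against 120.5 and 30.7 FPKM. Of the fat cell markers Adipoq and Retn were listed at 0 in all 4 libraries. The part of macrophage and endothelial RNA in the levels of Cd36, Fabp4, Lpl and Pparg was not tested.

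**Figure D2:**
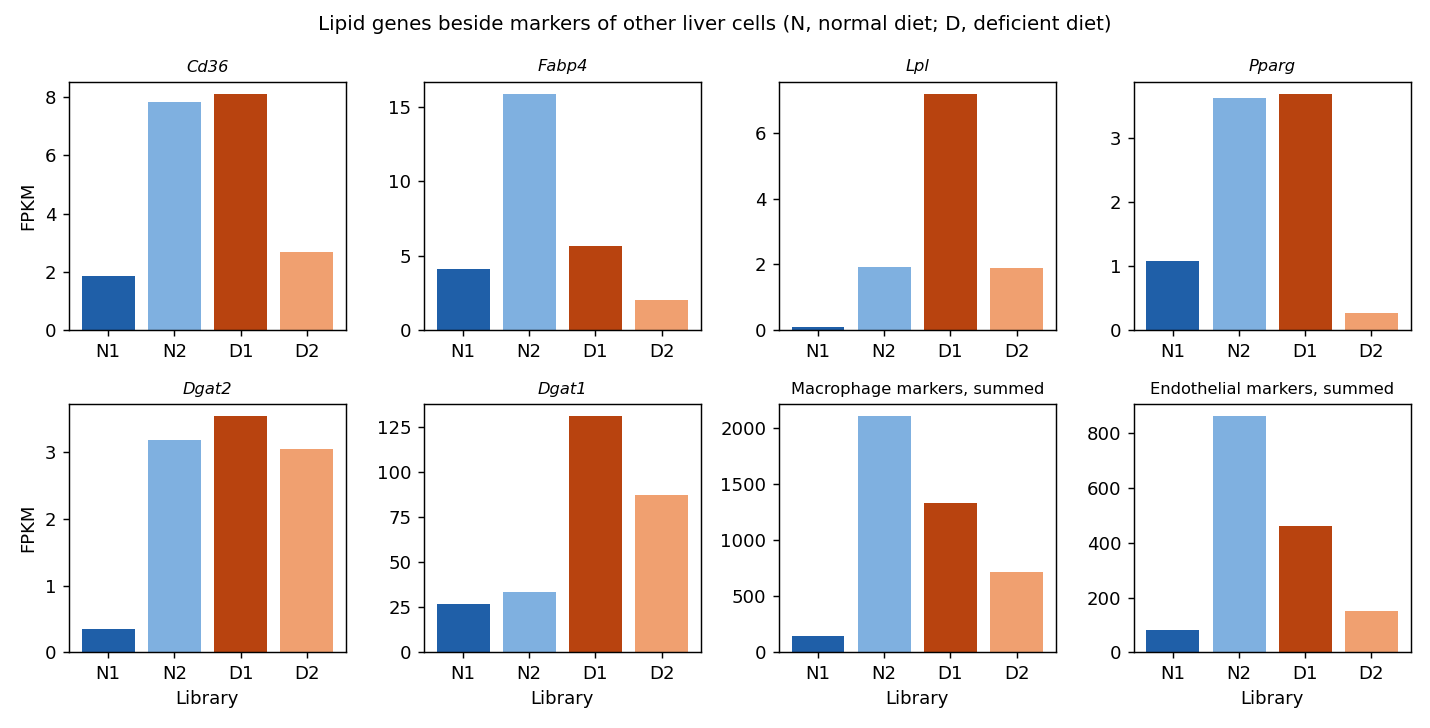
FPKM in each library (N, normal diet; D, deficient diet; 1 and 2, replicate) for 6 lipid genes and for the summed macrophage and endothelial markers. Cd36, Fabp4, Lpl, Pparg and both marker sums are higher in N2 than N1 and in D1 than D2. The sums and Fabp4 are highest in N2, and Cd36, Lpl and Pparg in D1. Dgat1, with the same order within each diet, is higher in both deficient diet libraries (131.0 and 87.4 FPKM) than in N2 (33.6 FPKM).

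Acyl-CoA synthetases trap a fatty acid inside the cell as an acyl-CoA. Acsl5 carried most of this family at 59.9 and 54.3 FPKM under the normal diet and 64.1 and 57.6 FPKM under the deficient diet. These groups overlapped (log2 change 0.09, 95% interval -0.29 to 0.47).

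Acsl4, which prefers arachidonic acid and other polyunsaturated chains, stood at 13.2 and 10.1 FPKM against 27.2 and 28.1 FPKM. Both deficient diet libraries lay above both normal diet libraries. The log2 change was 1.19 ± 0.20 (SE, n = 2 per diet), which missed the threshold (limma adjusted p = 0.0547) and passed it with a filter of 5 FPKM (0.0462) or robust empirical Bayes (0.0455). It missed the threshold under the other 12 of 14 alternatives, with adjusted p up to 0.287.

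Within the summed level of Acsl1, Acsl3, Acsl4 and Acsl5, the share of Acsl4 was 17.5% and 14.3% under the normal diet and 28.0% and 30.5% under the deficient diet. The share of Acsl5 was 79.2% and 76.8% against 66.1% and 62.4%. The mean share of Acsl4 was 15.9% ± 2.28 against 29.3% ± 1.74 (SD, n = 2 per diet), and no test was run on shares.

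Acsl1, the main synthetase of liver and fat, stood at 1.44 and 4.77 against 5.01 and 5.80 FPKM. Its diet groups did not overlap, although the normal diet libraries lay 3.31-fold apart, and it did not pass (limma adjusted p = 0.393). Without normal diet replicate 1 its log2 change was 0.15 in place of 0.77, and without normal diet replicate 2 it was 1.39. Acsl3, a synthetase tied to lipid droplets, was near the filter with 1.08 and 1.55 against 0.747 and 0.801 FPKM.

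**Figure D3:**
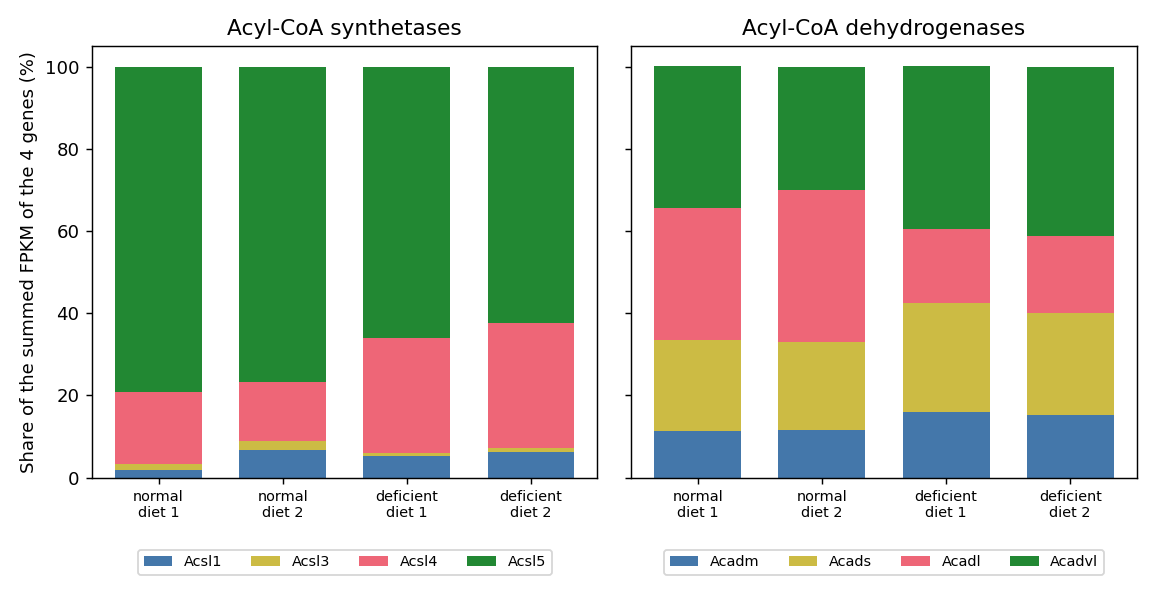
Share of each gene in the summed FPKM of 4 acyl-CoA synthetases (left) and 4 acyl-CoA dehydrogenases (right) in each library. Acsl4 takes 28.0% and 30.5% of the synthetases on the deficient diet against 17.5% and 14.3%, and Acadl takes 17.9% and 18.8% of the dehydrogenases against 32.2% and 37.1%.

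None of the 3 carnitine shuttle genes tested passed. Cpt1a, which encodes the outer membrane enzyme that commits acyl chains to oxidation, stood at 9.53 and 11.9 FPKM under the normal diet and at 14.6 and 10.6 FPKM under the deficient diet. The groups overlapped, and the log2 change of 0.20 had a 95% interval from -0.42 to 0.83 (limma adjusted p = 0.672). Differences of 1 log2 unit in either direction lie outside that interval.

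Cpt1b, the muscle form of the same enzyme, was listed at 0.0130 and 0.475 against 0.231 and 0.248 FPKM. Cpt1a thus carried between 96.2% and 99.9% of the summed level of both genes. Only 6.47% of the 36-base words of Cpt1b occur in no other annotated gene, all the rest being shared with the gene model Gm44502. Its level may thus depend on how shared reads were counted. Cpt2, the inner membrane partner, ranged from 3.05 to 5.84 FPKM over all libraries. Crat, which moves short acyl groups on and off carnitine, stood at 7.24 and 5.47 against 4.82 and 4.07 FPKM, lower without overlap (log2 change -0.43, limma adjusted p = 0.377).

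Acyl-CoA dehydrogenases carry out the first step of each cycle, and different enzymes serve different chain lengths. Acadvl acts on very long chains, Acadl on long chains in mouse tissues, Acadm on medium chains and Acads on short chains. The libraries of the diets did not overlap for any of these genes, and Acadl went the opposite way from the rest.

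Acadm stood at 20.7 and 21.3 FPKM under the normal diet and at 34.3 and 32.5 FPKM under the deficient diet, a log2 change of 0.65 ± 0.15 (SE, n = 2 per diet) with a limma adjusted p of 0.0969. Acadvl stood at 62.5 and 54.7 against 85.6 and 87.4 FPKM, and Acads at 40.2 and 38.8 against 57.8 and 52.4 FPKM. In these genes the deficient diet libraries were high and close to each other. Their log2 changes, 0.56 for Acadvl and 0.47 for Acads, had unadjusted 95% intervals above 0 and limma adjusted p of 0.115 and 0.150.

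Acadl stood at 58.4 and 67.6 FPKM under the normal diet and at 38.6 and 40.0 FPKM under the deficient diet. Both deficient diet libraries lay below both normal diet libraries, with a log2 change of -0.66 ± 0.15 and a limma adjusted p of 0.0922. With a library left out its log2 change ran from -0.77 to -0.56. The pancreatic markers and those gated out in the sort were also lower on the deficient diet, as given above, and their part in the level of Acadl was not tested.

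Set against each other, Acadl was 2.83 and 3.18 times the level of Acadm under the normal diet and 1.13 and 1.23 times under the deficient diet. Against Acadvl the ratio was 0.936 and 1.24 under the normal diet and 0.451 and 0.457 under the deficient diet. Acadl thus went from 34.6% ± 3.47 to 18.3% ± 0.694 of the summed level of these 4 dehydrogenases (SD, n = 2 per diet), and Acadvl from 32.2% ± 3.10 to 40.4% ± 1.14. A ratio within a library shows unequal change and not which gene changed. For Acadvl 69.6% of the 36-base words occur in no other gene, the rest being shared with Dvl2, against 100% for Acadl and Acads and 90.3% for Acadm. Acad9, which also assembles respiratory complex I, ranged from 8.54 to 9.45 FPKM.

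Promoter sequences from RefSeq (build GRCm38.p6) were matched for 28 of the 39 genes (31 promoters), from 250 bases before to 50 bases after the start. The 4 dehydrogenase promoters are shown because these genes share a pathway step and had opposite values, each 5′ to 3′ on the strand of its gene, the minus strand. Capitals mark AGGTCA, the half-site that PPAR and related nuclear receptors bind, or its reverse complement.
Acadm, chr3:153944594-153944893: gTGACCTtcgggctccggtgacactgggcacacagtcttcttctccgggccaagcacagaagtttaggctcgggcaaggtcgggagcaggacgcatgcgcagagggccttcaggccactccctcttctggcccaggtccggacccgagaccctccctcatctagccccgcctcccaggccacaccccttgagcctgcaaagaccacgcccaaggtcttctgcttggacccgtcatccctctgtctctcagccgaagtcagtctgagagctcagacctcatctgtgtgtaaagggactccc
Acads, chr5:115119297-115119596: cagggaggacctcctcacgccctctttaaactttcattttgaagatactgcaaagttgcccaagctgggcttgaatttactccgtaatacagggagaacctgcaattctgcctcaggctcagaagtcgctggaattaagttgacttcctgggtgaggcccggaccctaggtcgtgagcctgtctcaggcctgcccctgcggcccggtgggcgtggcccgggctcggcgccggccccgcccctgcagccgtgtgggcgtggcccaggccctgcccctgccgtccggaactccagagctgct
Acadvl, chr11:70015379-70015678: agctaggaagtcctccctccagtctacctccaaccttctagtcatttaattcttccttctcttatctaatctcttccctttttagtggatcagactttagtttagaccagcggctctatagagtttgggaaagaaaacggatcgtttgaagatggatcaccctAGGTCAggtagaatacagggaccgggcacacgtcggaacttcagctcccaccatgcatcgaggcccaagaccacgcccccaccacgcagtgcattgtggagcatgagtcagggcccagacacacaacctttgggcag
Acadl, chr1:66863260-66863559: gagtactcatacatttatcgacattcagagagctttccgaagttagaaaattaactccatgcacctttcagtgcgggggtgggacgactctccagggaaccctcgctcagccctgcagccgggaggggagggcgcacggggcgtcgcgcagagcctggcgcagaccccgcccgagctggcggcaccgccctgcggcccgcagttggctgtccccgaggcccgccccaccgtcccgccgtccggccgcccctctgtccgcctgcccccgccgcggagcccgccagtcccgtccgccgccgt
The half-site lay 249 bases before the start in Acadm and 87 bases before it in Acadvl. Its letters were not in the windows of Acads and Acadl. With both strands searched, 7 of the 28 genes held it: Acadm, Acadvl, Cd36, Cpt1a, Echs1, Plin2 and Pparg. It was in 16.3% of all 32851 promoters in the RefSeq table. That share counts promoters and the 7 of 28 counts genes, which held 31 promoters, so these are unlike units. The direct repeat AGGTCANAGGTCA, with N for any base, and the longer form TNAAGGTCA both contain that half-site. They were in no member's window and in 0.0396% and 1.28% of all promoters. A match describes the letters of a window and not a site in use.

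The later steps hydrate, oxidise and cleave the chain. Echs1, which encodes the short-chain enoyl-CoA hydratase of the mitochondrial matrix, stood at 39.4 and 38.1 FPKM under the normal diet and at 66.2 and 87.1 FPKM under the deficient diet. Both deficient diet libraries were higher, and the log2 change of 0.95 ± 0.18 (SE, n = 2 per diet) did not pass (limma adjusted p = 0.0696). Acaa2, the mitochondrial thiolase and the most abundant of the 39 genes, stood at 119.9 and 104.6 against 155.4 and 176.6 FPKM, also without overlap (log2 change 0.56, limma adjusted p = 0.126).

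Hadh, the dehydrogenase for medium and short hydroxyacyl chains, stood at 57.2 and 41.0 against 67.8 and 71.7 FPKM. Its groups did not overlap, yet the normal diet libraries lay 1.40-fold apart, about the 1.42-fold between the diet means. Acaa1a, the thiolase of peroxisomes, where very long chains are shortened, went the other way at 95.1 and 83.5 against 66.4 and 72.1 FPKM (log2 change -0.36, limma adjusted p = 0.240). Of its 36-base words 57.3% occur in no other gene, most of the rest being shared with Acaa1b.

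Hadha and Hadhb encode the subunits of the trifunctional protein, which carries out the last steps for long chains. Hadha stood at 50.6 and 55.8 against 54.2 and 52.2 FPKM, with equal diet means of 53.2 FPKM and a log2 change of 0.00, 95% interval -0.37 to 0.37. The fitted value of Hadha turned to -0.05 with quantile normalization. Hadhb ranged from 6.84 to 8.25 FPKM. The ratio of Hadha to Hadhb lay between 6.76 and 7.40 in the 4 libraries. Beside that, 99.0% of the 36-base words of Hadha and 35.3% of those of Hadhb occur in no other gene, most of the shared ones in Gm13910, and the part of shared reads in the ratio was not tested.

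Auxiliary enzymes let unsaturated chains enter the cycle. Eci2, an enoyl-CoA isomerase, stood at 27.7 and 25.6 against 27.7 and 41.2 FPKM, where deficient diet replicate 2 alone was high. Eci1, a second isomerase, ranged from 1.58 to 3.03 FPKM and Decr1, the dienoyl-CoA reductase, from 3.68 to 4.67 FPKM. None of these passed.

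Electrons from the dehydrogenases pass to the electron transfer flavoprotein and from there to ubiquinone. Etfa, the alpha subunit, stood at 62.5 and 56.5 against 72.3 and 73.0 FPKM, higher on the deficient diet without overlap (log2 change 0.29, limma adjusted p = 0.307). Etfb, the beta subunit, ranged from 18.2 to 21.6 FPKM. The ratio of Etfa to Etfb was between 3.03 and 3.90, beside 91.2% and 32.2% of words found in no other gene, and the part of shared reads was again not tested. Etfdh, which hands the electrons to ubiquinone, ranged from 9.66 to 14.7 FPKM. Across the 16 mitochondrial enzymes and electron carriers of these groups, 10 lay higher and 2 lower without overlap, beside 30.7% and 25.5% of all genes. The 10 include genes whose diets barely parted. The closest libraries stood at 27.72 and 27.73 FPKM for Eci2 and at 8.94 and 9.335 FPKM for Acad9. The median log2 change of the 16 was 0.30, beside 0.04 over all genes tested. None of the 16 passed, and 6 had an unadjusted p under 0.05, beside 22.8% of all genes.

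**Figure D4:**
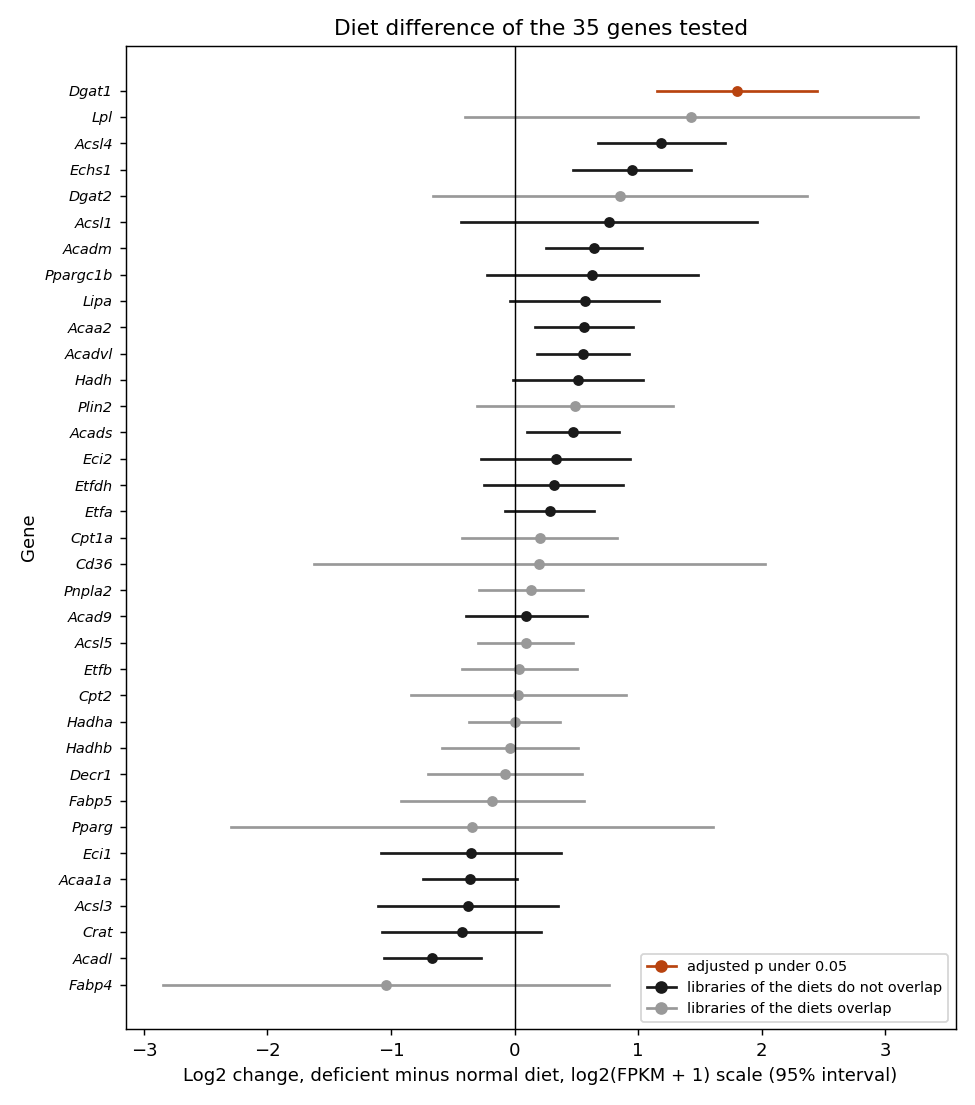
Log2 change (deficient minus normal diet, log2(FPKM + 1) scale) of the 35 genes tested, with 95% intervals not adjusted for multiple testing. Dgat1 at 1.80 is the 1 called gene, and Acadl at -0.66 has its interval below 0 while those of Acadm, Acads, Acadvl, Acaa2, Echs1 and Acsl4 lie above it.

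PPAR receptors are the nuclear receptors that switch on genes of fatty acid use, and their transcripts were scarce. Ppara was at most 0.144 FPKM and Ppard at most 0.190 FPKM in any library, and Ppara was listed at 0 in 2 of the 4. Pparg stood at 1.08 and 3.62 against 3.68 and 0.272 FPKM, with the diets overlapping. Of the coactivators, Ppargc1a was at most 0.166 FPKM. Ppargc1b stood at 4.71 and 2.50 FPKM against 5.26 and 6.67 FPKM, higher on the deficient diet without overlap, and did not pass (log2 change 0.63, limma adjusted p = 0.336, log2 change 0.28 to 0.98 with a library left out).

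Storage held the 1 member that passed. Dgat1, which encodes the enzyme of the endoplasmic reticulum that adds the last acyl chain to make triglyceride, stood at 26.9 and 33.6 FPKM under the normal diet and at 131.0 and 87.4 FPKM under the deficient diet. Both deficient diet libraries lay far above both normal diet libraries. The mean rose from 30.2 ± 4.76 to 109.2 ± 30.8 FPKM (SD, n = 2 per diet), a log2 change of 1.80 ± 0.25 (SE) with a limma adjusted p of 0.0444. All 36-base words of the Dgat1 transcript occur in no other annotated gene.

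The call for Dgat1 depended on the libraries and settings. Its log2 change was 1.64, 1.51 and 2.09 without normal diet replicate 1, deficient diet replicate 1 or deficient diet replicate 2, where the limma adjusted p was 0.117, 0.101 and 0.231, and 1.95 without normal diet replicate 2 (0.0424). The call was also lost without the filter on low values (limma adjusted p = 0.186) and with the replicate number as a block (0.103). In both of those fits limma called 0 genes in all, so the loss was not particular to Dgat1. The Dgat1 call was further lost without the mean-variance trend (0.0671) and with each library rescaled to the same sum (0.0517). It held under 7 of 14 alternatives. Within each diet Dgat1 was higher in the library with more macrophage marker RNA, normal diet replicate 2 and deficient diet replicate 1. Between diets the order differed for the summed markers, which were highest in normal diet replicate 2, where Dgat1 was at 33.6 FPKM. Lyz2 made up most of that sum, at 1934 of 2110 FPKM, and most of the single markers were also highest there. Csf1r and Marco of the same list were highest in deficient diet replicate 1, as Dgat1 was, at 25.9 and 4.52 FPKM. So was the sum of antigen-presenting cell markers, 546.4 and 1730 against 3609 and 1508 FPKM. The markers of exocrine pancreas and of the gated-out cells were lower on the deficient diet. The part of any of these in the rise was not tested.

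Dgat2, an unrelated protein with the same activity, stood at 0.345 and 3.18 against 3.54 and 3.05 FPKM. Normal diet replicate 1 was the low library, as for the macrophage markers. Dgat1 carried between 91.4% and 98.7% of the summed level of both genes. Plin2, which coats lipid droplets, stood at 28.4 and 39.4 FPKM against 60.8 and 36.9 FPKM, so that the diets overlapped and deficient diet replicate 1 was high (log2 change 0.49, limma adjusted p = 0.405).

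Neither lipolysis gene passed. Pnpla2, the lipase that starts the breakdown of stored triglyceride, ranged from 38.4 to 48.0 FPKM with overlapping diets. Its ratio to Dgat1 shows the contrast, since Dgat1 was 0.700 and 0.797 times the level of Pnpla2 on the normal diet and 3.21 and 1.82 times on the deficient diet. Lipa, the acid lipase of lysosomes and abundant in macrophages, stood at 27.1 and 39.4 against 53.4 and 44.8 FPKM, higher without overlap (log2 change 0.57, limma adjusted p = 0.241, log2 change 0.31 to 0.83 with a library left out). As with the macrophage markers, normal diet replicate 1 was its lowest library, and the part of macrophage RNA was not tested.

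Other genes of these pathways gave 2 calls. Of 141 genes on 8 further lists 100 were tested. Of these 2 were called higher and none lower, beside 2.74% of all genes called, and the median log2 change was 0.15. Agpat4, an acyltransferase that makes phosphatidic acid, the precursor of triglyceride and phospholipid, rose from 7.34 and 12.0 FPKM to 37.8 and 35.4 FPKM (log2 change 1.85 ± 0.26, limma adjusted p = 0.0446). Slc27a6, a fatty acid transport protein, rose from 1.38 and 1.39 FPKM to 8.07 and 7.24 FPKM (log2 change 1.86 ± 0.23, limma adjusted p = 0.0397). Both stayed higher with each library left out, with log2 changes from 1.53 to 2.17 and from 1.79 to 1.93. Their calls were lost without normal diet replicate 1, deficient diet replicate 1 or deficient diet replicate 2, and that of Slc27a6 also without normal diet replicate 2 (adjusted p = 0.0568). Over 14 alternatives the call held under 6 for Agpat4 and 8 for Slc27a6, with adjusted p from 0.0243 to 0.271 and from 0.0304 to 0.251.

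Of 12 genes tested for triglyceride synthesis 1 was called, and the median was -0.05. Soat2, which esterifies cholesterol, stood at 14.4 and 7.99 against 2.50 and 2.50 FPKM and did not pass (adjusted p = 0.0667). Of 10 other droplet and lipolysis genes none was called and 9 had higher fitted values, beside 5550 of all 10423 genes tested. Their median was 0.47. The libraries of the diets overlapped for 6 of the 10, and 4 lay higher without overlap, beside 30.7% of all genes. Among them Hilpda, a droplet protein that inhibits the lipase encoded by Pnpla2, stood at 40.9 and 31.4 against 73.9 and 82.7 FPKM (limma adjusted p = 0.0553). Plin3, a second droplet coat protein, stood at 45.3 and 66.3 against 106.5 and 111.8 FPKM (0.0899).

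Of 10 other uptake and binding genes 1 was called, with a median of 0.23. Fabp1, the binding protein of hepatocytes, stood at 5.21 and 44.5 against 1.73 and 0 FPKM, and the sum of the 13 hepatocyte markers, Fabp1 among them, was 23.0 and 163.8 against 114.6 and 65.9 FPKM. Ttr, Fgb, Fgg, Fabp1 and Apob of these 13 were at 0 in at least 1 library, and the part of hepatocyte RNA was not tested.

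Of 13 peroxisomal genes none was called (median 0.09). Acox3, an oxidase of the first step of that pathway, stood 2.02-fold higher by mean FPKM without overlap. Of 4 genes for carnitine supply none was called (median 0.27). Slc25a20, the carrier that brings acylcarnitine through the inner membrane, stood at 14.0 and 15.6 against 27.6 and 24.8 FPKM (adjusted p = 0.0868), and Aldh9a1, of carnitine synthesis, at 42.3 and 36.1 against 45.2 and 52.4 FPKM.

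Of 9 thioesterase and acyl-CoA binding genes none was called (median 0.12). Acot9, a mitochondrial thioesterase, stood at 39.9 and 54.0 against 81.6 and 82.2 FPKM. Acbd3, a Golgi protein with an acyl-CoA binding domain, stood at 12.2 and 7.57 against 2.31 and 1.79 FPKM (adjusted p = 0.0553).

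Of 20 other oxidation and ketone body genes none was called (median 0.22). Oxct1, which uses ketone bodies, stood at 20.1 and 17.1 against 9.28 and 9.15 FPKM (adjusted p = 0.0726). Of 22 PPAR partners, targets and fuel switches none was called (median 0.03). Rxrb, a partner receptor of the PPARs, stood at 39.7 and 34.9 against 15.2 and 7.55 FPKM (adjusted p = 0.0750), and Esrra, a receptor that drives mitochondrial genes, at 15.3 and 10.3 against 9.03 and 4.49 FPKM (0.262).

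**Figure D5:**
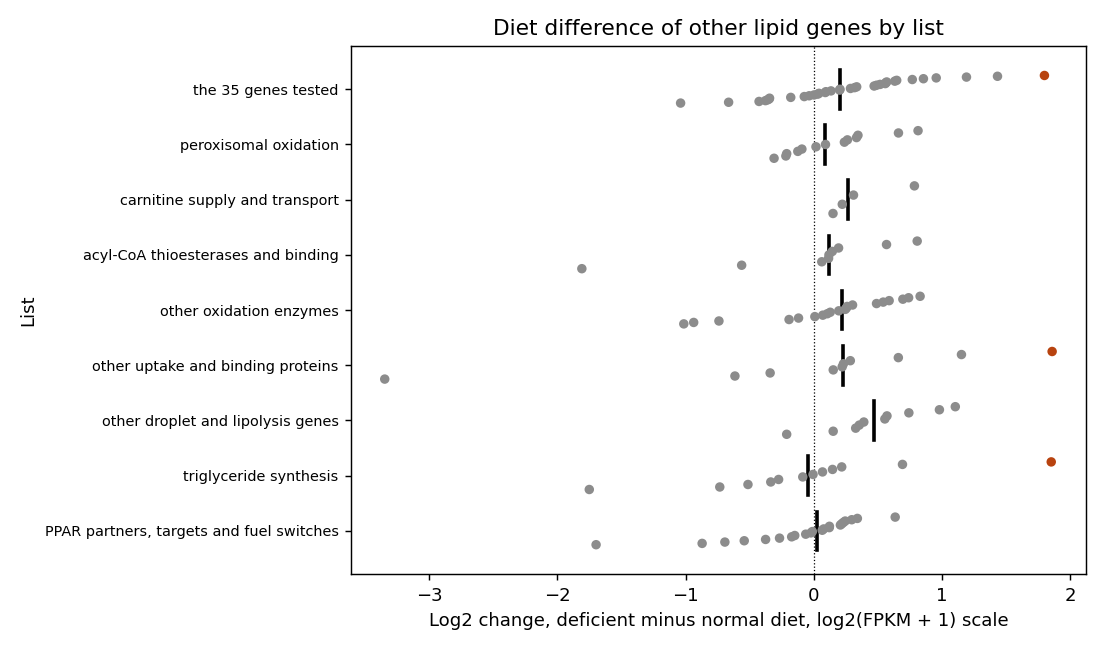
Log2 change (deficient minus normal diet, log2(FPKM + 1) scale) of each tested gene in 8 further lipid lists and among the 35 members tested, with a bar at each median. The called genes, in orange, are Dgat1, Slc27a6 at 1.86 and Agpat4 at 1.85, and list medians run from -0.05 to 0.47.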

How the data were processed

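RNA sequencing of 2 libraries per diet was analysed. The submitters' processing notes name Bowtie 0.12.2 and build mm8. The quantifier, annotation, strand setting and filters behind the table are not stated in the sources at hand. The values deposited by the authors were read as FPKM, although neither table nor labels name a unit: they are not whole and sum to between 370112 and 389403 per library. TPM would differ by a factor per library. Without counts the depth, and so its precision, is unknown, and no count test was run. The table gives symbols without coordinates.

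The scale was log2(FPKM + 1), over the 10423 genes reaching 1 FPKM in 2 or more libraries. The fit used limma 3.58.1 under R 4.3.3 (mean-variance trend, diet as single factor, adjusted p of 0.05, 2 residual and 2.84 prior degrees of freedom). This scale understates changes of low genes. The fit was tested on simulated data, where limma called 20% of log2 changes of 1, 86.3% of 2 and 97.3% of 3. The lack of a call therefore says little about changes of 1 log2 unit. Only genes with a mean log2(FPKM + 1) above 2 were given a change, a level that Acsl3, Eci1 and Pparg did not reach. The simulated libraries varied independently of each other, so these rates need not hold for the members. Folds are ratios of mean FPKM. The design allows no exact permutation test to pass, so none was run.

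The members, lists and tests were chosen with earlier results of these data known. Library values were given for members of at least 1 FPKM without overlap and with a log2 change of at least 0.5, for Cpt1a, Cpt1b, Fabp4, Fabp5, Cd36, Plin2 and Acsl4, and for the most abundant member of each role. Of further lists, called genes and the 2 largest separated changes were named. Some genes this rule names are not reported here. Library values of other members, and ratios, were added after seeing the data. Sequence words of 36 bases were counted on both strands against all GENCODE vM21 transcripts, and the authors' annotation is not stated. The count does not separate gene models that overlap at the same place from similar genes elsewhere.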

Additional observations from a re-analysis of the deposited data

How the results depend on the processing

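Beside the 286 genes called, fits with a library left out called 0 to 352 genes (176 of the 352 among the 286), and 0 were called without the filter on low values (limma, with 2768 at an unadjusted p under 0.05). With the replicate number as a block 0 passed in limma, with 1844 at an unadjusted p under 0.05, and Dgat1 had an adjusted p of 0.103. Quantile normalization gave 467, no mean-variance trend 141, robust empirical Bayes 432 and an adjusted p of 0.10 gave 912. Same-numbered libraries deviated in opposite directions from their diet means (correlation -0.284 across genes), and a block with crossed numbers, chosen after seeing the data, called 52 genes and 1 member. Of the 35 members 1 was called: 0 to 1 with a library left out, 0 with no filter, with each library rescaled to the same sum, with the replicate block or without the trend, 2 with a filter of 5 FPKM or robust empirical Bayes, and 5 at an adjusted p of 0.10. The cause of these shifts was not tested. When a library is left out, the remaining one of its diet is assumed to vary like the other diet. The median log2 change of the members, 0.20, ran from 0.14 to 0.41 with a library left out, the highest without deficient diet replicate 2. Members whose fitted value changed sign lay near 0 or varied between replicates. With a library left out the log2 change ran from -0.61 to 1.01 for Cd36, -0.0071 to 0.41 for Cpt1a, -0.35 to 0.41 for Cpt2, -0.18 to 0.031 for Decr1, -0.064 to 0.14 for Etfb, -0.48 to 0.12 for Fabp5, -0.068 to 0.071 for Hadha, -0.16 to 0.083 for Hadhb and -1.29 to 0.59 for Pparg, and Hadha was -0.053 with quantile normalization. The other 26 members tested kept their sign under each alternative in which they were tested.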

Other observations

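Markers of further cell types were present beside the lipid genes. With the normal diet libraries given before the deficient diet libraries, 8 neutrophil markers summed to 146.8 and 809.6 against 294.0 and 317.1 FPKM, with Camp at 0 in at least 1 library. Of the 7 tested, Mmp9 was called lower, at 83.4 and 46.6 against 7.99 and 9.24 FPKM (limma adjusted p = 0.0364). Ngp was lower without overlap and not called, and the other 5 overlapped. The 6 B cell markers, none at 0, summed to 24.5 and 108.3 against 45.94 and 35.96 FPKM. The 8 markers of antigen-presenting cells, Cd74 the highest and none at 0, summed to 546.4 and 1730 against 3609 and 1508 FPKM. The 7 markers of stellate cells and fibroblasts summed to 9.34 and 31.7 against 9.52 and 11.4 FPKM, with Col1a2, Col3a1, Des and Pdgfrb at 0 in at least 1 library. The 4 fat cell markers summed to 4.21 and 11.2 against 10.5 and 11.4 FPKM, nearly all of it Lipe, a lipase that other cells also make.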
